A study of Mus musculus with 6 samples.

Results

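The comparison described here sets RNA precipitated with an antibody to AGO2 from Dicer KO macrophages against the input RNA of the same cells. It uses 2 of the 6 arrays of the study, with 1 array on each side. Of 34755 genes and transcripts on the array, 15282 were well above background on both arrays and were measured. The Dicer KO cells were macrophages grown from bone marrow of LysM-Cre/Dicer flox/flox/Apoe-/- mice, and the Dicer WT cells came from LysM-Cre/Dicer wt/wt/Apoe-/- mice, both 6 to 8 weeks old and male per the labels. LysM-Cre expresses Cre recombinase in myeloid cells, so that floxed Dicer is to be cut in macrophages, and all groups carry the Apoe-/- genotype at the gene of apolipoprotein E, a carrier of lipids. The cells were cultured for 7 days in medium with L929-conditioned supernatant. Lysates were incubated for 7 hours with beads carrying a monoclonal anti-AGO2 antibody or control IgG, and input RNA was taken from the lysate before precipitation. The 6 groups are thus KO AGO2-RIP, KO IgG-RIP, KO input, WT AGO2-RIP, WT IgG-RIP and WT input.

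AGO2 is the Argonaute protein at the core of the RNA-induced silencing complex. It holds a mature miRNA and pairs the miRNA's seed with sites that lie mostly in the 3′ untranslated regions of mRNAs, which are then degraded or less translated. Dicer is the enzyme that cuts most miRNA precursors to their mature length, so AGO2 of cells without Dicer is to lack most of its guide RNAs. RNA that comes down with AGO2 beads can also be bound to the beads or to other proteins, which the IgG precipitation measures.

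The labels and the sex-linked transcripts did not match on 3 of the 6 arrays. The Y chromosome genes Ddx3y and Eif2s3y were detected on each of the 3 arrays of KO cells but on 0 of 3 from WT cells. For Xist, which the inactive X chromosome expresses, the counts were 0 of 3 in KO cells and 3 of 3 in WT cells. Lyz2, the gene whose promoter drives the Cre, also differed by genotype: it was well above background on KO AGO2-RIP (3.56), KO IgG-RIP (4.11) and KO input (5.66), on WT IgG-RIP (-1.16), but not on WT AGO2-RIP (-4.30) or WT input (-2.19), on the log2 scale explained below. The Apoe probe was well above background on each of the 6 arrays, with -0.79 on KO AGO2-RIP, 1.18 on KO IgG-RIP and -0.01 on KO input, so it does not show the loss of the gene, and whether it lies outside the inactivated part is unknown. Every comparison of KO with WT below therefore also compares animals that differ in these transcripts, and the part of that in the results was not tested. Of 13 macrophage markers, 13 were above background on each of the KO AGO2-RIP, KO IgG-RIP and KO input arrays, with a summed level of 1386 on KO AGO2-RIP, 1745 on KO IgG-RIP and 2338 on KO input in units of each array's 75th percentile. Fibroblast markers numbered 1 of 6 above background on KO AGO2-RIP and 1 of 6 on KO input. For neutrophils it was 1 of 7 on KO AGO2-RIP and 2 of 7 on KO input, and for B cells 1 of 5 on both arrays. Erythroid and megakaryocyte markers had the highest summed level after macrophages, 24.2 on KO AGO2-RIP, 24.2 on KO IgG-RIP and 75.9 on KO input, mostly from Pf4, a platelet chemokine, at 4.52 on KO AGO2-RIP, 4.53 on KO IgG-RIP and 6.22 on KO input. Osteoclast markers summed to 3.05 on KO AGO2-RIP, 3.70 on KO IgG-RIP and 0.684 on KO input, mostly from Oscar, at 1.37 on KO AGO2-RIP, 1.72 on KO IgG-RIP and -1.65 on KO input. The part of these cell types in the results was not tested. Between 41.0% (KO input) and 46.3% (KO AGO2-RIP) of spots on these 2 arrays were well above background, and 0 spots were saturated. With 1 array a side no test was possible, so every difference below is a size without a replicate check, and whether it exceeds the spread between cultures is unknown.

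The miRNAs whose known targets are described below are shown with their seed (bases 2 to 8) in capitals, as RefSeq gives the mature sequences on build GRCm38.p6. The 3 let-7 members carry the same seed and the others have different ones. The miRNAs themselves were not measured on these arrays.
let-7a-5p: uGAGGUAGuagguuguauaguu
let-7g-5p: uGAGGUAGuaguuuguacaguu
let-7i-5p: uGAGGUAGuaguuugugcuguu
miR-155-5p: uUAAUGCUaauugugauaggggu
miR-17-5p: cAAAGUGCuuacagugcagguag
miR-223-3p: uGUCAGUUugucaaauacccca
miR-21a-5p: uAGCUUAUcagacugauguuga
miR-146a-5p: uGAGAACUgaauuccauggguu

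Probe stretches of Tnfsf9 and Dusp2, which stood high in the AGO2-RIP, and of Myc, whose level is not given here, follow. They were picked because the letters complementary to a seed lie inside the probe itself. Capitals mark those letters. All 3 come from the array files (mm9, plus strand): the Tnfsf9 probe lies at chr17:57247062-57247121, the Dusp2 probe at chr2:127163930-127163989 and the Myc probe at chr15:61821417-61821476. The match is to miR-155-5p in Tnfsf9 and to miR-223-3p in Dusp2 and Myc.
Tnfsf9: attcactagatAGCATTAgtaaactgctgg
Dusp2: agttatttgtgttcAACTGACatttaacgc
Myc: gaaactctggtgcataAACTGACctaactc
The Malat1 probe, of a long non-coding RNA held in the nucleus, is shown whole and lies at chr19:5795713-5795772 on the minus strand of mm9.
Malat1: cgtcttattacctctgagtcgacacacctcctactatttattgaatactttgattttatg
A match is a description of letters and not a bound site. Searched on the probe's own strand, the 7 letters AGCATTA lay in 0.365% of all 55627 probes, and AACTGAC lay in 0.340%. Genes with these letters did not stand high as a set. Of 49 measured genes with AGCATTA, 5 were at least 2-fold higher in KO AGO2-RIP than in KO input and 16 lower. Of 52 with AACTGAC, 9 were higher and 14 lower, beside 14.6% higher and 26.4% lower over all measured genes.

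Dicer1 itself had a relative level of 0.94 on KO AGO2-RIP, -2.24 on KO IgG-RIP (not well above background) and -0.55 on KO input. Relative level here and below is a log2 processed intensity from which the 75th percentile of that array's non-control spots was subtracted, so that 0 marks that percentile. On the WT arrays Dicer1 had 0.93 on AGO2-RIP, 0.17 on IgG-RIP and 0.22 on input. Dicer1 was thus lower on KO input than on WT input by less than 1 log2 unit. Which exons the deletion removes, and whether the probe lies in them, could not be read from the labels or files used here, so this level does not check the genotype labels. Ago2, the gene of the precipitated protein, had 3.07 on KO AGO2-RIP, 3.43 on KO IgG-RIP and 3.01 on KO input with its brightest probe. Its 3 probes disagreed, with AGO2-RIP minus input differences from -1.71 to 0.07.

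In the AGO2-RIP of Dicer KO cells, mRNAs of ribosomal proteins, mitochondrial proteins and the proteasome stood lower than in the input. Immediate early genes, known let-7 targets, p53 targets and zinc finger genes had list medians above that of all measured genes, though many of their members did not reach 2-fold. In the KO IgG-RIP, immediate early and zinc finger genes had medians above that of all genes as well. The lists that stood lower were below the input there too. Differences are given as KO AGO2-RIP minus KO input on the log2 scale. Of the 15282 measured genes, 2233 (14.6%) were higher in KO AGO2-RIP by 2-fold or more and 4039 (26.4%) lower by 2-fold or more. For KO IgG-RIP minus the same KO input array the shares were 17.5% higher and 28.8% lower of 14333 genes, and for WT AGO2-RIP minus WT input 14.8% higher and 26.4% lower of 14415. The median difference was -0.24, with an SD across genes of 1.24 and 80% of genes between -1.79 and 1.30. A further 1183 genes were bright on KO AGO2-RIP and not well above background on KO input with a bound of at least 2-fold, and 461 the other way round.

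The balance between both directions depended on how the arrays were scaled. With each array centred on its median, 1203 genes were higher and 6325 lower by 2-fold, and with quantile normalization 2673 were higher and 3018 lower. When the 75th percentile was taken over probes above background on all 6 arrays, 4202 were higher and 2109 lower, and the median difference became 0.32. The higher genes were 35.6% of all genes past 2-fold with the main scaling, 15.98% with median centring, 46.97% with quantile normalization and 66.6% with the percentile over common probes. Gene lists are therefore read against the median of all measured genes, which moves with them. Each count of list members past 2-fold below is to be set beside 14.6% higher and 26.4% lower over all measured genes. A count near these shares says nothing particular about its list. Since an equal mass of pre-amplified cDNA went on each array, only relative abundance was measured.

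Among genes with a symbol matched in RefSeq, to which the rankings here are limited, Tnfsf9, the ligand of the T cell costimulator 4-1BB, had the highest difference. Its relative level was 5.69 on KO AGO2-RIP, -0.53 on KO IgG-RIP and 0.04 on KO input, a difference of 5.64. Its AGO2-RIP value lay far above both others, and in WT cells the same comparison gave 5.48. Dusp2, a nuclear phosphatase that switches off MAP kinases, had 4.84 on KO AGO2-RIP and -0.35 on KO input (36.5-fold) and was not well above background on KO IgG-RIP. Ddit4, the stress-induced inhibitor of the growth kinase complex mTORC1, had 6.12 on KO AGO2-RIP, -1.85 on KO IgG-RIP and 2.06 on KO input. It was high in the input and higher still in the AGO2-RIP, by 4.06, while its IgG-RIP level was the lowest of the 3. Btg2, an antiproliferative protein that recruits the CCR4-NOT deadenylase, had 3.03 on KO AGO2-RIP, -0.82 on KO IgG-RIP and -1.29 on KO input. Gna11, a G protein alpha subunit, had 3.81 on KO AGO2-RIP, -0.15 on KO IgG-RIP and -0.35 on KO input. For Zc3hav1l, a relative of the antiviral zinc finger protein ZAP, the levels were 4.60 on KO AGO2-RIP, -1.65 on KO IgG-RIP and 0.51 on KO input. In these 6 genes the IgG-RIP was at most 0.47 above the input (Btg2), or below it.

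In the other 6 of the 12 highest genes the IgG-RIP was above the input by 2-fold or more. Plppr3, a membrane protein related to lipid phosphatases, had 4.49 on KO AGO2-RIP, 4.19 on KO IgG-RIP and -0.83 on KO input. Its second probe differed by only 0.44, so the difference of 5.32 rests on 1 probe. Akap10, an anchor of protein kinase A, had 3.03 on KO AGO2-RIP, 1.95 on KO IgG-RIP and -1.40 on KO input, and its 3 probes ranged from 0.37 to 4.42. The probes of both genes disagreed. The remaining 4 were Ifit1bl2 and Mettl21c, at 4.00 and 3.88, and the uncharacterised transcripts 4931406H21Rik, at 4.84, and Gm10648, at 3.90. Each had 1 measured probe and was dim on KO input, where the faintest value well above background was -2.44. Their KO input levels were -1.91 for Ifit1bl2, -2.32 for Mettl21c, -2.02 for 4931406H21Rik and -2.28 for Gm10648. Malat1 had 1.84 on KO AGO2-RIP, 1.90 on KO IgG-RIP and -1.93 on KO input, so both precipitates lay above the input by nearly the same amount.

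**Figure D1:**
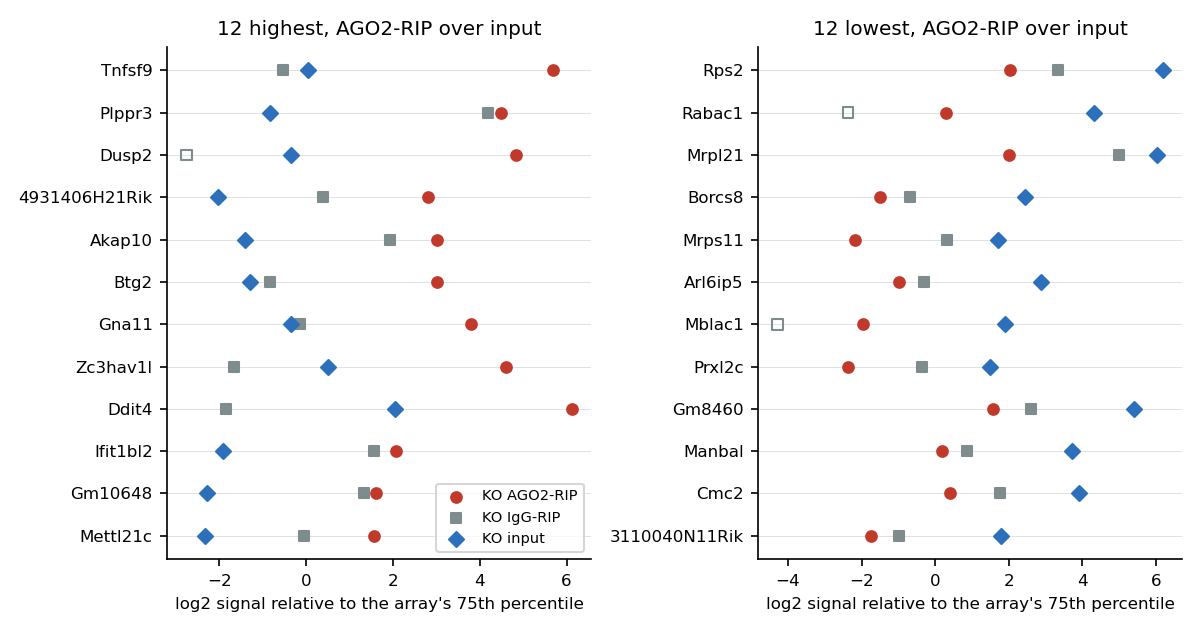
Relative level (log2 signal minus the array's 75th percentile) of the 12 RefSeq-matched genes with the highest and the 12 with the lowest KO AGO2-RIP minus KO input difference, 1 point per array; open symbols were not well above background. Tnfsf9 stands at 5.69 on KO AGO2-RIP and 0.04 on KO input, while Plppr3 is high on both precipitates, and Rps2 stands at 2.02 on KO AGO2-RIP and 6.18 on KO input.

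The lowest such gene was Rps2, a protein of the small ribosomal subunit, with 2.02 on KO AGO2-RIP, 3.34 on KO IgG-RIP and 6.18 on KO input, a difference of -4.16. Its second probe differed by -1.83, in the same direction and less. Rabac1, a Golgi protein that accepts prenylated Rab proteins, had 0.28 on KO AGO2-RIP and 4.32 on KO input, and its second probe differed by -0.54. Mrpl21, of the large mitochondrial ribosomal subunit, had 2.005 on KO AGO2-RIP, 4.99 on KO IgG-RIP and 6.01 on KO input. Here the IgG-RIP was below the input by 1.02 and the AGO2-RIP by 4.01. Mrps11, of the small mitochondrial subunit, had -2.17 on KO AGO2-RIP, 0.32 on KO IgG-RIP and 1.70 on KO input. Borcs8, part of a complex that positions lysosomes, had -1.51 on KO AGO2-RIP, -0.69 on KO IgG-RIP and 2.43 on KO input. Cmc2, which takes part in the assembly of cytochrome c oxidase, had 0.40 on KO AGO2-RIP, 1.77 on KO IgG-RIP and 3.92 on KO input. The other 6 genes (Arl6ip5, Mblac1, Prxl2c, Gm8460, Manbal and 3110040N11Rik) had differences between -3.87 (Arl6ip5) and -3.51 (3110040N11Rik).

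A second probe was available for part of the genes past 2-fold. For the genes at least 2-fold higher, 527 had one, which was past 2-fold the same way for 39.3% and had the same sign for 73.1%. For those at least 2-fold lower, 951 had one, with 63.3% past 2-fold and 87.8% of the same sign. Among genes with several probes that all differed the same way, the highest by the probe nearest 0 included 2 cyclins that drive the start of the cell cycle. Ccne1 had 2.79 on KO AGO2-RIP, 0.98 on KO IgG-RIP and -0.28 on KO input. Ccnd3 had 5.52 on KO AGO2-RIP, 2.08 on KO IgG-RIP and 3.46 on KO input. Both were highest on AGO2-RIP, and for Ccnd3 the IgG-RIP was the lowest of the 3. Lpar6, a receptor for lysophosphatidic acid, had 4.69 on KO AGO2-RIP, 0.72 on KO IgG-RIP and 1.81 on KO input. Flcn, the tumour suppressor folliculin, which acts in amino acid sensing at the lysosome, had 4.46 on KO AGO2-RIP, 2.16 on KO IgG-RIP and 1.91 on KO input. Ccnl2, a cyclin linked to splicing, had 4.43 on KO AGO2-RIP, 2.18 on KO IgG-RIP and 1.48 on KO input. The others were Slfn9, Mink1, Dclre1c, Gm10845 and 2410002F23Rik. Slfn9 and Gm10845 were as high on IgG-RIP as on AGO2-RIP, with 5.79 on KO AGO2-RIP and 5.69 on KO IgG-RIP for Slfn9, and 5.22 on KO AGO2-RIP and 5.54 on KO IgG-RIP for Gm10845. At the low end by the same rule stood the ribosomal protein genes Rpl26 (2.44 on KO AGO2-RIP and 5.55 on KO input) and Rpl23a (5.08 on KO AGO2-RIP and 8.03 on KO input). Dpy30, a shared subunit of histone H3 lysine methyltransferases, had 0.11 on KO AGO2-RIP and 3.15 on KO input.

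Some genes gave only a bound because they were dim on 1 array. Chac1, an enzyme that breaks down glutathione under stress, had 2.80 on KO AGO2-RIP and was not well above background on KO input, and was at least 37.6-fold higher in KO AGO2-RIP. In WT cells Chac1 was measured on both arrays, with 4.85 on WT AGO2-RIP and -0.29 on WT input. Slc7a15 and 4933439C10Rik were at least 22.5-fold and 19.2-fold higher. Of these, Slc7a15 stood at 2.06 on KO AGO2-RIP and 2.08 on KO IgG-RIP. In the other direction Stk16, a membrane-associated kinase, was at least 19.5-fold lower in KO AGO2-RIP, and Cebpg, a transcription factor of the C/EBP family, at least 13.4-fold lower. Tnfrsf23, a decoy receptor, and the olfactory receptor Olfr472 were at least 12.4-fold and 12.3-fold lower. Olfr472 was well above background on KO input alone among the 6 arrays.

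Cytosolic ribosomal proteins were the lowest list. Of 79 measured cytosolic ribosomal protein genes, 71 were lower and 1 was higher in KO AGO2-RIP by 2-fold or more, beside 26.4% lower and 14.6% higher over all measured genes. Their median difference was -1.93 for KO AGO2-RIP minus input and -1.62 for KO IgG-RIP minus input. The lowest after Rps2 were Rpl28, with 2.90 on KO AGO2-RIP and 6.22 on KO input, and Rpl21, with 2.52 on KO AGO2-RIP and 5.77 on KO input. The exceptions were Rps3 at 1.15, for which other probes reached -0.65, and Rpl38 at 0.32. Ribosomal protein genes have many processed copies with near-identical sequence, so a probe can share signal with them. Among 57 translation factor genes, 32 were at least 2-fold lower and 1 higher, with a median of -1.15. For KO IgG-RIP minus input the median was -1.08 over 56 of them. Eif4a3, a core protein of the exon junction complex, had the lowest value, with 1.03 on KO AGO2-RIP and 3.82 on KO input. Eef1g, a subunit of the elongation factor that loads aminoacyl-tRNA, was the exception, with 6.67 on KO AGO2-RIP, 4.54 on KO IgG-RIP and 5.25 on KO input. Its 3 probes lay between 1.42 and 1.63.

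Genes of mitochondria and of protein turnover stood low in the same way. Of 73 mitochondrial ribosomal protein genes, 50 were at least 2-fold lower and 2 higher, with a median of -1.43. The 37 genes of respiratory complex I had a median of -1.25, with 24 lower and 1 higher, and the 44 genes of complexes II to V had -1.38, with 36 lower and 2 higher. Ndufb8, a complex I subunit, had 3.68 on KO AGO2-RIP and 6.36 on KO input, and Uqcr10, of complex III, had 3.23 on KO AGO2-RIP and 6.12 on KO input. Exceptions in complex I were Ndufa3, with 5.48 on KO AGO2-RIP, 2.004 on KO IgG-RIP and 3.65 on KO input, and Ndufa4, with 5.97 on KO AGO2-RIP, 2.81 on KO IgG-RIP and 5.16 on KO input. Both stood highest on AGO2-RIP and lowest on IgG-RIP. Of 37 proteasome subunit genes, 25 were at least 2-fold lower and 0 at least 2-fold higher, with a median of -1.38. Psmb8, an immunoproteasome subunit, had 1.08 on KO AGO2-RIP and 3.90 on KO input. Among 45 ER chaperone and translocon genes, 24 were at least 2-fold lower and 0 higher, with a median of -1.01. These genes are abundant, with a median level of 4.24 on KO input, and the part of level in this was not tested. Spcs1, of the signal peptidase, was lowest, with 3.26 on KO AGO2-RIP and 5.65 on KO input. The KO IgG-RIP minus KO input medians of these lists were -1.51 for mitochondrial ribosomal proteins, -1.59 for complex I, -1.71 for complexes II to V, -1.33 for the proteasome and -1.12 for the ER list.

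Genes of macrophage identity were below the input too. Of 35, 14 were at least 2-fold lower and 1 higher, beside 26.4% lower and 14.6% higher over all measured genes. The median of the list was -0.80. For KO IgG-RIP minus input it was -0.65, also with 14 of 35 lower and 1 higher by 2-fold or more. Its genes are abundant, with a median level of 5.475 on KO input, and the part of level in this was not tested. Relative to all measured genes, the list median was -0.57 and ranged from -0.68 to -0.08 under other ways of processing. The complement component genes C1qa and C1qb were among the lowest, with 1.95 on KO AGO2-RIP and 4.98 on KO input for C1qa, and 5.43 on KO AGO2-RIP and 7.78 on KO input for C1qb. Lyz2, a lysozyme gene with the levels given above, differed by -2.11. At the other end was Cd300a, an inhibitory receptor, at 1.67, with 1.85 for KO IgG-RIP minus input. The mannose receptor Mrc1 had 4.35 on KO AGO2-RIP, 4.17 on KO IgG-RIP and 3.81 on KO input. Fcer1g, the Fc receptor gamma chain, had 8.38 on KO AGO2-RIP, 7.22 on KO IgG-RIP and 7.87 on KO input. The MHC genes had a median of -1.24, with 7 of 12 at least 2-fold lower, and a KO IgG-RIP minus input median of -1.38. Cd74, the invariant chain of MHC class II, was lowest, with -0.17 on KO AGO2-RIP, -0.06 on KO IgG-RIP and 1.63 on KO input. Ciita, the activator of the class II genes, was highest at 1.16, with 1.04 for KO IgG-RIP minus input.

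Immediate early genes, which signalling switches on within minutes, had the highest median among lists with at least 5 measured genes. Of 22 measured, 11 were higher and 0 lower by 2-fold or more, with a median of 0.94 against -0.24 for all measured genes. Over the 19 genes also measured on KO IgG-RIP, the median was 1.01 for KO AGO2-RIP minus input and 0.12 for KO IgG-RIP minus input. Dusp1, a phosphatase that ends MAP kinase signalling, had 4.27 on KO AGO2-RIP, 1.32 on KO IgG-RIP and 1.20 on KO input. Dusp2 and Btg2, given above, were the highest members. At the low end, Fosb, a subunit of AP-1, had -1.08 on KO AGO2-RIP and -0.20 on KO input, and Klf4, a zinc finger transcription factor, had -1.29 on KO AGO2-RIP and -0.52 on KO input. Atf3, a stress-induced transcription factor, had 1.66 on KO AGO2-RIP and 2.42 on KO input. Fos, the partner of Jun in AP-1, had 0.44 on KO AGO2-RIP, 0.89 on KO IgG-RIP and -1.14 on KO input and was thus higher on both precipitates.

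The list of known let-7 targets, drawn up from general knowledge, came second. Of 25 on the array, 17 were measured, and 8 of these were higher and 1 was lower by 2-fold or more. The median over the 17 was 0.86 for KO AGO2-RIP minus input. Over the 16 genes also measured on KO IgG-RIP it was 0.65, against -0.44 for KO IgG-RIP minus input. Gene by gene, KO AGO2-RIP minus KO IgG-RIP had a median of 0.79 over 16 genes. Dusp1, also on this list, was its highest member. Ccnj, a cyclin, had 2.56 on KO AGO2-RIP, -1.41 on KO IgG-RIP and 0.04 on KO input. Hmga2, a chromatin protein and a classic let-7 target, had 4.28 on KO AGO2-RIP, 2.35 on KO IgG-RIP and 2.35 on KO input. Among the lowest were Nras, a growth-signalling GTPase, with 3.29 on KO AGO2-RIP and 4.23 on KO input, and Map4k4, a kinase, with 2.86 on KO AGO2-RIP and 3.42 on KO input. The let-7 seed match CTACCTC lay in 1 of the 39 array probes of the listed genes, that of Hmga2. Over all measured genes, 56 probes (0.366%) held it, against 0.367% of all probes, with a median difference of 0.25 for KO AGO2-RIP minus input and 0.25 for KO IgG-RIP minus input.

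**Figure D2:**
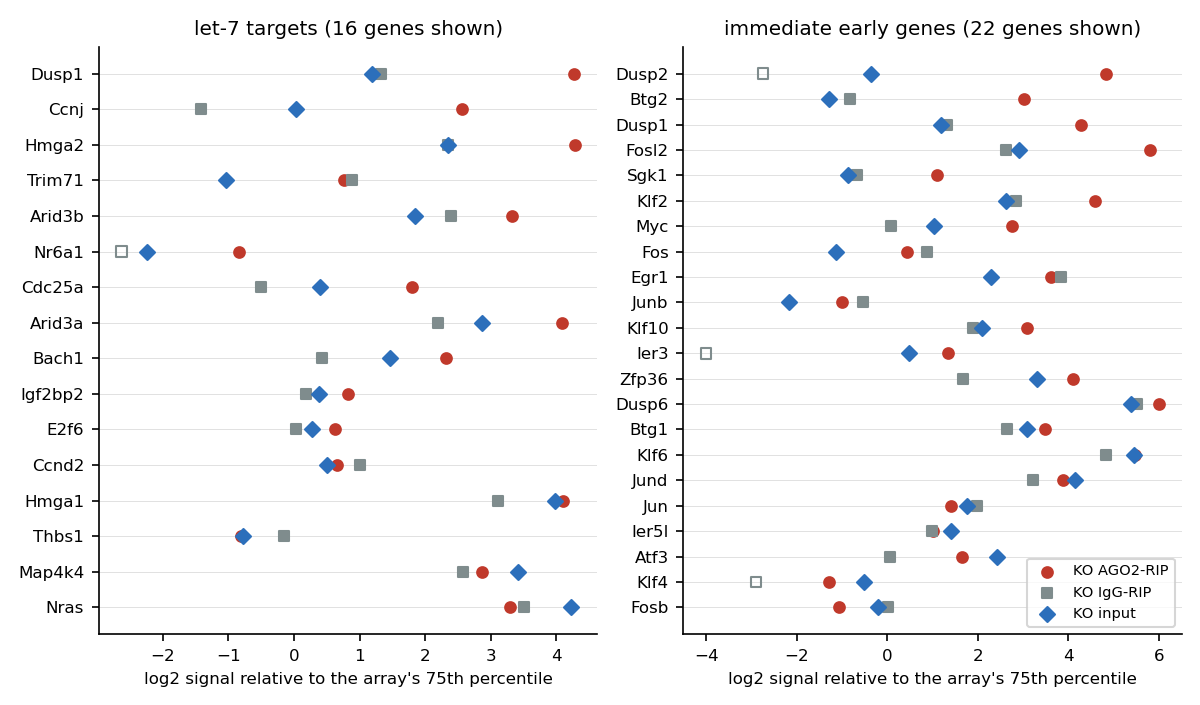
Relative level of 16 of the 17 measured let-7 targets (left) and of the 22 measured immediate early genes (right) on the KO AGO2-RIP, KO IgG-RIP and KO input arrays, ordered by AGO2-RIP minus input; open symbols were not well above background. Hmga2 stands at 4.28 on KO AGO2-RIP and at 2.35 on both KO IgG-RIP and KO input, while Nras is lower on KO AGO2-RIP, at 3.29, than on KO input, at 4.23.

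Targets of other miRNAs were closer to the median of all genes. The miR-223 list had a median of 0.38 over 14 genes, the miR-155 list 0.24 over 16, the miR-21 list -0.16 over 11, the list of the miR-17 cluster -0.20 over 14 and the miR-146a list -0.88 over 8. Fbxw7, which marks cyclin E for degradation and is a known miR-223 target, had 2.57 on KO AGO2-RIP, 1.23 on KO IgG-RIP and -0.13 on KO input. Jarid2, a component of Polycomb repressive complex and a known miR-155 target, had 2.23 on KO AGO2-RIP, 1.67 on KO IgG-RIP and -0.55 on KO input. In both the IgG-RIP lay between the other arrays. Within the miR-146a list the receptor Cxcr4 was highest, with 6.15 on KO AGO2-RIP, 3.66 on KO IgG-RIP and 4.08 on KO input. Irak1 and Traf6, which carry toll-like receptor signals and are known miR-146a targets, stood low, at -1.67 and -1.82, although another Irak1 probe differed by only -0.40. For seed matches in the probes of measured genes, the median difference was -0.60 for miR-155, -0.26 for miR-223, -0.13 for miR-17, -0.46 for miR-21 and -0.18 for miR-146a, over 34 to 90 genes each.

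The p53 targets, genes that the tumour suppressor p53 switches on, had a median of 0.53 over 20 genes, with 7 higher and 2 lower by 2-fold or more. Bbc3, the cell death protein Puma, had 5.44 on KO AGO2-RIP, 1.85 on KO IgG-RIP and 2.26 on KO input. Plk2, a stress-induced kinase, had 2.56 on KO AGO2-RIP, 1.40 on KO IgG-RIP and 0.09 on KO input. In contrast Bax, another cell death gene, had 4.86 on KO AGO2-RIP, 4.67 on KO IgG-RIP and 6.11 on KO input, lower on both precipitates. Over the 19 genes also measured on KO IgG-RIP, the list median was 0.42 for KO AGO2-RIP minus input and -0.41 for KO IgG-RIP minus input.

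Zinc finger genes and chromatin modifiers had medians above that of all genes in both precipitates. Of 205 numbered zinc finger genes, 50 were higher and 8 lower by 2-fold or more, with a median of 0.46 for KO AGO2-RIP minus input. For KO IgG-RIP minus input 43 of 179 were higher and 9 lower, with a median of 0.21. Gene by gene, KO AGO2-RIP minus KO IgG-RIP had a median of -0.02 over 186 genes. The zinc finger genes were dim, with a median level of -0.09 on KO input, and the part of level in this was not tested. The 55 chromatin modifier genes had a median of 0.39 for KO AGO2-RIP, with 15 higher and 5 lower. Over the 51 also measured on KO IgG-RIP, the medians were 0.39 for KO AGO2-RIP and -0.03 for KO IgG-RIP. Tet2, which oxidises methylated cytosine, was the highest of them, with 3.93 on KO AGO2-RIP, 3.38 on KO IgG-RIP and 1.32 on KO input. For Zfp457, whose copies are similar in sequence to other zinc finger genes, the levels were 9.80 on KO AGO2-RIP, 10.09 on KO IgG-RIP and 7.14 on KO input, and its second probe differed by 0.84. The 13 measured nuclear and snoRNA host non-coding RNAs had a median of 0.25 for KO AGO2-RIP over input, with 3 higher and 1 lower by 2-fold or more. For KO IgG-RIP over input the median was -0.67 over 11 of the list. Taken gene by gene, however, KO AGO2-RIP minus KO IgG-RIP had a median of -0.05 over 12 genes, so these RNAs stood about equally high on both precipitates. Among them, Neat1, the scaffold of paraspeckles, had 4.34 on KO AGO2-RIP, 4.37 on KO IgG-RIP and 2.71 on KO input, while Snhg3, a snoRNA host, had 0.61 on KO AGO2-RIP, 0.73 on KO IgG-RIP and 1.80 on KO input. The 74 splicing factor genes had a median of -0.67.

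The genes of miRNA biogenesis and of silencing were near the median as a group (-0.17 over 26 genes), and the 4 that were higher by 2-fold or more are a share near the 14.6% of all measured genes. Mov10, a helicase that binds AGO2, had 4.86 on KO AGO2-RIP, 3.34 on KO IgG-RIP and 1.49 on KO input. Tnrc6a, a GW182 protein that links AGO2 to deadenylases, had 2.49 on KO AGO2-RIP, 0.91 on KO IgG-RIP and 0.38 on KO input. Both are genes of AGO2's partners, and their mRNAs were highest on AGO2-RIP. Hsp90ab1, a chaperone that helps load AGO2, was the lowest, with 5.87 on KO AGO2-RIP and 7.54 on KO input. Among 40 genes of mRNA deadenylation and decay, the median was 0.06, with 6 higher and 6 lower.

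Inflammatory genes were mixed. Of 15 chemokine and cytokine genes, 5 were higher and 3 lower by 2-fold or more, with a median of 0.13. Csf1, the growth factor of macrophages, had 1.21 on KO AGO2-RIP, 0.14 on KO IgG-RIP and -1.17 on KO input. The monocyte chemokine Ccl7 had 6.31 on KO AGO2-RIP, 3.83 on KO IgG-RIP and 4.63 on KO input. Ccl12, another chemokine of the same group, had 1.03 on KO AGO2-RIP, 0.96 on KO IgG-RIP and 3.05 on KO input, so these related chemokines lay on opposite sides. Among 21 NF-kB feedback genes, 4 were higher and 2 lower, with a median of 0.10. Nfkbid, a nuclear inhibitor of the IkB family, had 3.02 on KO AGO2-RIP, 0.87 on KO IgG-RIP and -0.75 on KO input, and Relb, an NF-kB subunit, had -0.71 on KO AGO2-RIP and 1.20 on KO input, with another probe at -0.21. The 22 interferon-stimulated genes had a median of -0.04 for KO AGO2-RIP over input. Over the 20 also measured on KO IgG-RIP, it was -0.07 for KO AGO2-RIP and -0.80 for KO IgG-RIP over input.

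**Figure D3:**
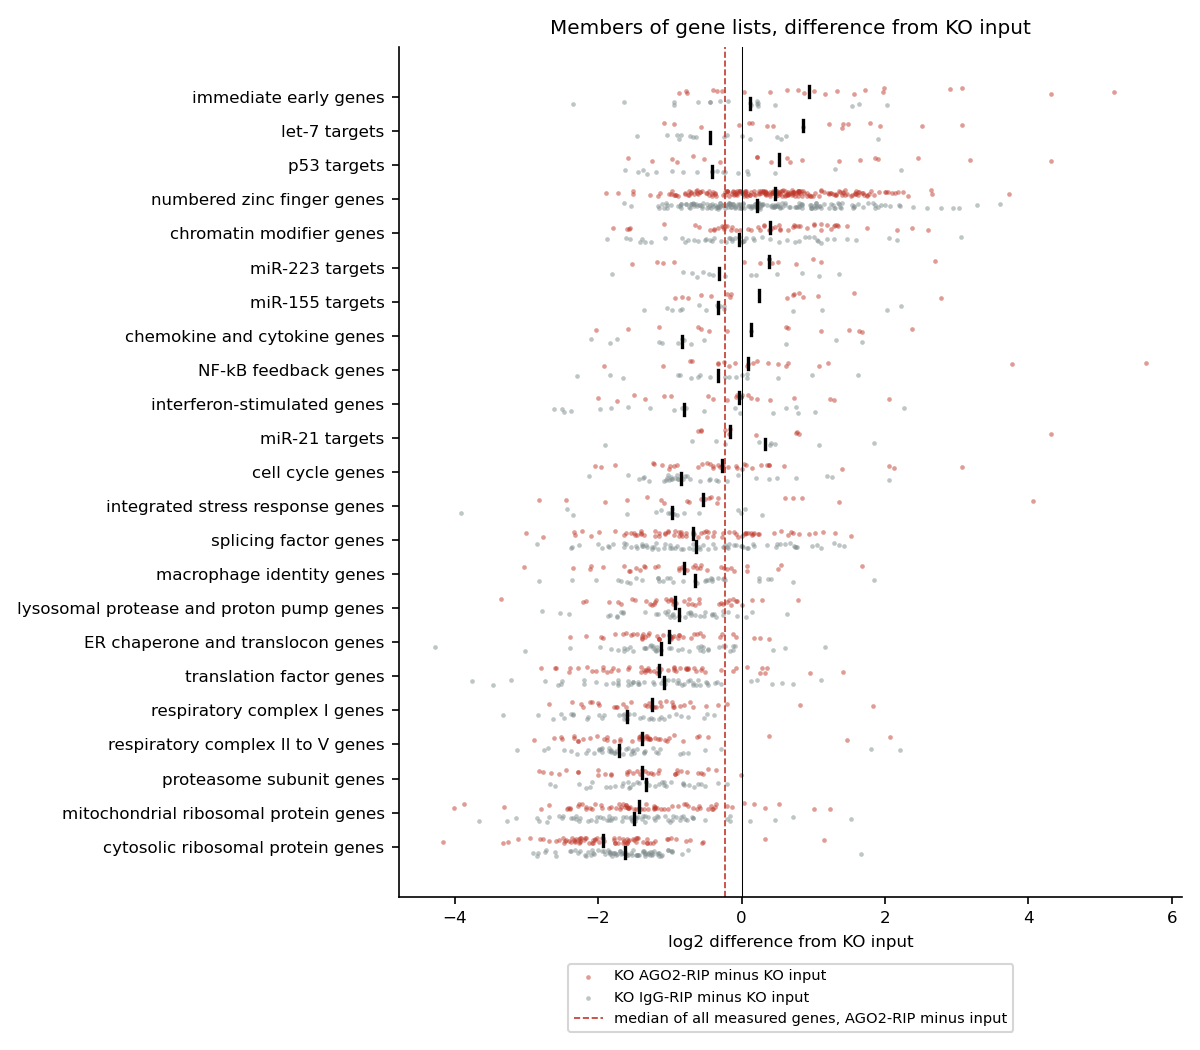
Log2 difference from KO input of the measured members (points) and their median (black bar) of 23 gene lists, for KO AGO2-RIP (upper row of each pair) and KO IgG-RIP (lower row), which share the KO input array; the dashed line is the median of all measured genes for AGO2-RIP, -0.24. Immediate early genes have the highest AGO2-RIP median, 0.94, and cytosolic ribosomal protein genes the lowest, -1.93, and both the AGO2-RIP and the IgG-RIP medians of the ribosomal protein genes lie below -1.

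The difference varied with how abundant a transcript was. Measured genes that were also well above background on WT input were ordered by their level on that array, which is on neither side of the comparison. The median difference of KO AGO2-RIP over input was 0.39 in the dimmest of 10 equal groups and -1.25 in the brightest. For KO IgG-RIP over input it was 0.76 in the dimmest and -1.17 in the brightest group. These IgG-RIP medians cover only genes also well above background on KO IgG-RIP, 1103 of 1411 in the dimmest group. The share of genes at least 2-fold lower in KO AGO2-RIP was 4.61% in the dimmest group and 57.7% in the brightest, and the share at least 2-fold higher was 27.7% and 5.32%. The dimmest group lay between -1.94 and -1.02 on WT input, and the faintest value well above background on KO AGO2-RIP was -2.54. Genes that fell below that value were not measured, so the filter limits the share lower among dim genes and bears on the slope. By how much was not tested. Ribosomal protein and mitochondrial genes are abundant, and how much of their difference goes with level alone was not tested. By annotation, the 9778 RefSeq mRNAs had a median of -0.31, and the 2042 genes of intergenic lincRNA probes had 0.21 for KO AGO2-RIP and 0.49 for KO IgG-RIP over input.

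**Figure D4:**
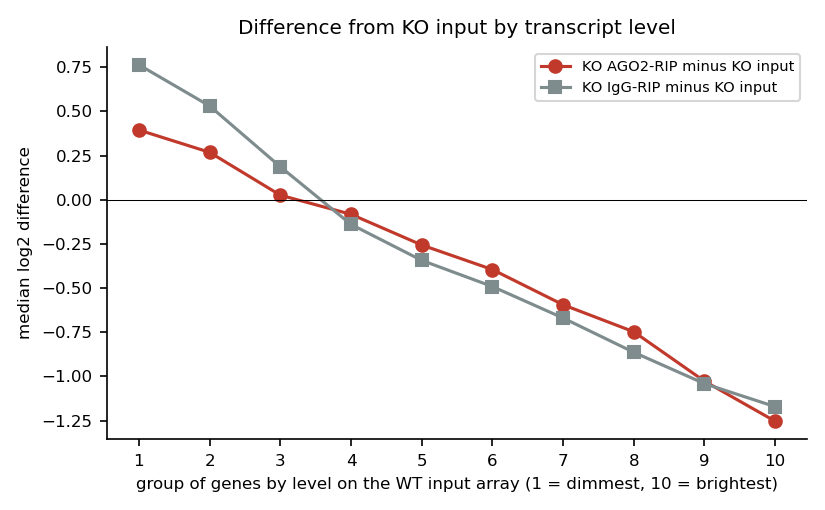
Median log2 difference from KO input of KO AGO2-RIP (circles) and KO IgG-RIP (squares) in 10 equal groups of genes, ordered by level on the WT input array. Shown are measured genes also well above background on WT input, and for IgG-RIP only those well above background on that array too. Both lines slope down, with AGO2-RIP at 0.39 in the dimmest group and -1.25 in the brightest.

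The same comparison in Dicer WT cells shares no array with the one in KO cells. Over the 13865 genes measured on all 4 arrays, the differences in KO and in WT correlated with a Pearson r of 0.80 across genes, which share the probes and the pre-amplification and are not independent replicates. Of 1862 such genes at least 2-fold higher in KO, 1115 were so in WT as well, 59.9% of the KO list and 53.2% of the 2096 in the WT list. For genes at least 2-fold lower, 2773 were in both lists, 69.9% of 3968 in KO and 76.1% of 3643 in WT, and 35 genes were past 2-fold in opposite directions. Tnfsf9, Dusp2 and Ddit4 were at 5.48, 6.36 and 5.75 in WT, against 5.64, 5.19 and 4.06 given for KO. The KO minus WT difference had a median of -0.02 and an SD of 0.79 across genes, with no test, as there is 1 array a group.

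By median, members of the let-7 list were the ones that differed most by genotype among the lists with at least 5 genes on all 4 arrays. Their median KO minus WT difference was -1.15, and 13 of 15 were lower in KO, beside 51.3% of all genes. The let-7 median for AGO2-RIP over input was 0.86 over 17 genes in KO and 1.71 over 16 genes in WT. Arid3b, a DNA-binding protein, was at 1.48 in KO and 4.36 in WT, and Ccnj at 2.52 in KO and 4.47 in WT. Dusp1 was at 3.07 in KO and 4.01 in WT. Trim71, a let-7 target expressed mainly in early development, went the other way, at 1.80 in KO and 1.37 in WT. The p53 list had a median KO minus WT difference of -0.75, with 15 of 19 lower in KO, and immediate early genes had -0.57, with 15 of 21 lower. The cytosolic ribosomal protein genes were at a median of -1.93 in KO and -2.23 in WT. Lcor, a nuclear receptor corepressor, was at -0.23 in KO and 2.22 in WT, with 2.59 on KO AGO2-RIP, 2.82 on KO input, 2.65 on WT AGO2-RIP and 0.42 on WT input. Its AGO2-RIP levels were thus close and its input level higher in KO.

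**Figure D5:**
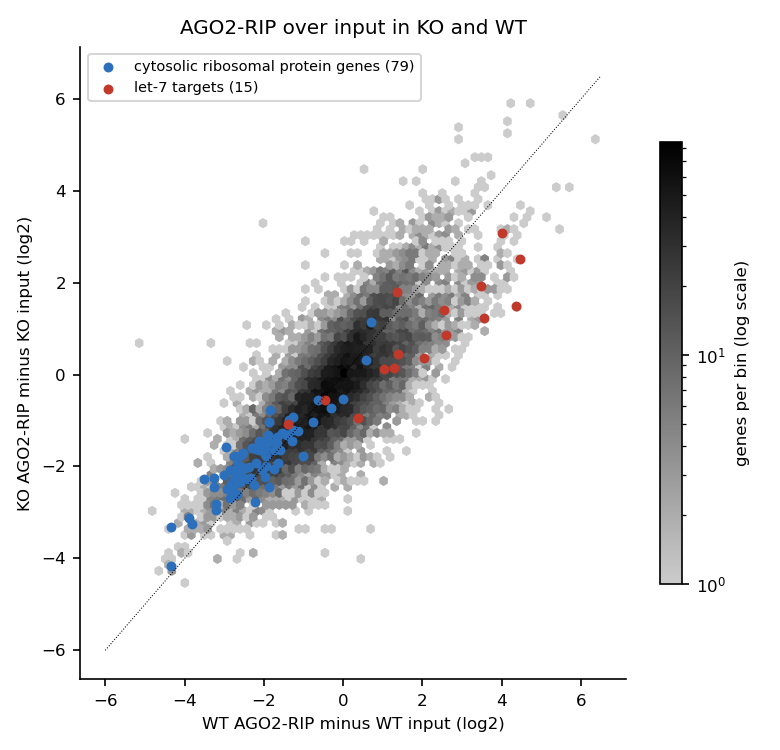
AGO2-RIP minus input in KO (vertical axis) against the same in WT (horizontal axis), log2, for the 13865 genes measured on all 4 arrays (grey bins), with let-7 targets (red) and cytosolic ribosomal protein genes (blue); the dotted line marks equal values. The let-7 targets lie mostly to the right of the line, with 13 of 15 lower in KO.

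The genes with the highest KO minus WT difference were Slc32a1, Trip6, Mamld1, Spata5l1, Trappc5 and Ints5. Slc32a1, a vesicular transporter of inhibitory transmitters, had 0.33 on KO AGO2-RIP, -0.39 on KO input, -0.31 on WT AGO2-RIP and 4.83 on WT input, so a single array, WT input, set its value of 5.86. Mamld1 had 2.09 on KO AGO2-RIP, -0.85 on KO input, -1.06 on WT AGO2-RIP and -0.12 on WT input. Trappc5, a subunit of the vesicle-tethering TRAPP complex, had 2.30 on KO AGO2-RIP, 1.95 on KO input, -0.97 on WT AGO2-RIP and 1.92 on WT input, but its 2 probes ranged from -3.46 to 0.36 for KO AGO2-RIP minus input, so its value of 3.24 rests on 1 probe. At the low end were Mblac1, Prrg1, Mdfi, Iqcb1, Ikzf2 and Rhobtb2. Ikzf2, the transcription factor Helios, had -0.78 on KO AGO2-RIP, 0.13 on KO input, 1.70 on WT AGO2-RIP and -0.71 on WT input. Mdfi, an inhibitor of myogenic factors, had -2.06 on KO AGO2-RIP, -1.32 on KO input, 0.80 on WT AGO2-RIP and -1.84 on WT input.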

How the data were processed

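The authors deposited scanner output of 1-colour arrays, extracted with Agilent Feature Extraction 10.7.3.1 per the submitters' processing notes. The deposited values are a linear intensity with the background subtracted and no normalization between arrays, per the file headers. Its log2 was taken and the array's 75th percentile over 59305 non-control spots was subtracted. Spots of a probe were averaged, 54 probes with outlier spots were dropped, and each gene took the values of its brightest probe on average. Names were updated through RefSeq (GRCm38.p6, names only) through the accession for 27656 probes, the symbol for 3401 and a synonym for 321, while 24303 kept the array's name. Coordinates are those of the files (mm9). Whether a probe lies in a coding exon or an untranslated region was not looked up.

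Genes had to be well above background on both arrays. Where 1 was dim, a bound was taken against the dim array's faintest value well above background, or against the dim probe itself where that was brighter. The 2-fold threshold is a size, not a test, and array number limits the precision. Spots of the same probe give the difference a noise of 0.22 log2, in which culture, precipitation and amplification have no part. Shared cell preparations are not stated in the labels, and KO IgG-RIP shares the KO input array.

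Named genes, taken from those with a symbol matched in RefSeq, are the 12 highest and 12 lowest, the 10 highest and 10 lowest with several probes of 1 direction, the 4 largest bounds each way, the 6 highest and 6 lowest by KO minus WT, the 3 highest and 3 lowest of a described list, and Dicer1, Ago2, Lcor, Apoe, Actb and Gapdh. Myc, Arid3b and Trim71 fall outside this rule and were picked with their values known, and 4 genes that the rule names are not reported here. The comparison, the lists and the rule were chosen with earlier results of these data known. Alternatives were median centring, a percentile over common probes, quantile normalization, normexp (limma 3.58.1 in R 4.3.3, offset 50), other filters and the median of a gene's probes. The script was tested on simulated data. Other steps used Python 3.11.15, numpy 2.4.6, pandas 2.3.3 and matplotlib 3.10.9.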

Additional observations from a re-analysis of the deposited data

Results flagged for a closer look

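Among the named genes, 6 were past 2-fold in AGO2-RIP over input in opposite directions in KO and WT, out of 35 such genes in all, and 1 list had medians of opposite sign that were both beyond the spot noise of 0.22. These differences were not tested, since each group has 1 array. Trip6, an adhesion protein, was at 3.26 in KO and -2.06 in WT, a KO minus WT difference of 5.31. Spata5l1 was at 1.06 in KO and -2.39 in WT, a difference of 3.45. Ints5, a subunit of the Integrator complex, was at 1.22 in KO and -1.64 in WT, a difference of 2.86. In the other direction, Prrg1 was at -2.32 in KO and 1.06 in WT, a difference of -3.37. Iqcb1, a protein of the primary cilium, was at -1.06 in KO and 2.30 in WT, a difference of -3.36. Rhobtb2 was at -2.25 in KO and 1.04 in WT, a difference of -3.30. Each of these 6 genes had 1 measured probe, and most were dim on 1 AGO2-RIP array. On WT AGO2-RIP, Trip6 had -2.43, Ints5 -1.81 and Spata5l1 -1.77, where the faintest value well above background was -2.62. On KO AGO2-RIP, Rhobtb2 had -2.41, Prrg1 -1.93 and Iqcb1 -1.53, where the faintest was -2.54. The list of nuclear and snoRNA host non-coding RNAs had a median of 0.25 in KO and -0.30 in WT, and the median difference over its members on all 4 arrays was 0.78.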

How the results depend on the processing

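Counts past 2-fold and the median of all genes moved with the scaling. With median centring, 1203 genes were higher and 6325 lower, with a median of -0.74. With the percentile over probes above background on all 6 arrays, 4202 were higher and 2109 lower, and the median reversed to 0.32. Quantile normalization gave a median of -0.09, normexp gave 1356 genes higher, and no background filter gave 6103 higher. List medians relative to all genes changed sign under at least 1 of the 8 alternatives for 6 of 37 lists. Those of the cell cycle, miR-21 and miRNA biogenesis lists were near 0 in the main setting (-0.04, 0.08 and 0.065) and ranged from -0.13 to 0.32, from -0.04 to 0.15 and from -0.10 to 0.065. Of the others, the splicing factor list was at 0.0297 under quantile normalization, the chemokine list at -0.0354 without a filter and the olfactory receptor list at -0.0018 without a filter. The let-7 list ranged from 0.48 to 1.15 and the ribosomal protein list from -1.82 to -1.22. Rps3 was at -0.54 with the median of its probes, since its probes disagree. Other causes were not tested. No paired analysis was possible because each group has 1 array, and for the same reason no replicate could be left out. Dim genes are limited by signal over background.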

Other observations

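Other gene groups were also placed against the input. Over all measured genes, 14.6% were higher and 26.4% lower in KO AGO2-RIP by 2-fold or more, and several of the counts here are not far from these shares. Of 36 replication-dependent histone genes, 2 were higher and 12 lower in KO AGO2-RIP by 2-fold or more, with a median of -0.84 in KO and -1.40 in WT. Their mRNAs lack poly(A) tails, and similar copies can share a probe's signal. Cell cycle genes had a median of -0.27 in KO and 0.05 in WT, with 4 of 37 at least 2-fold higher in KO AGO2-RIP and 7 lower. Mcm7, a subunit of the replicative helicase, was lowest, with 2.68 on KO AGO2-RIP and 4.73 on KO input, and Ccnf, a cyclin of the ubiquitin ligase SCF, had 3.29 on KO AGO2-RIP, 0.14 on KO IgG-RIP and 1.16 on KO input.

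Of 32 lipid handling genes, 2 were higher and 11 lower by 2-fold or more, beside 14.6% higher and 26.4% lower over all measured genes. The median of the lipid handling list was -0.60, and -0.68 for KO IgG-RIP minus input. Mylip, a ubiquitin ligase induced by sterol-sensing nuclear receptors, had 2.92 on KO AGO2-RIP, 0.74 on KO IgG-RIP and 1.64 on KO input. Cd36, a scavenger receptor for oxidised lipoproteins, had 2.63 on KO AGO2-RIP and 4.41 on KO input. Among 22 toll-like receptor pathway genes, 1 was higher and 9 lower by 2-fold or more, with a median of -0.74. Over the 20 also measured on KO IgG-RIP, the KO IgG-RIP minus input median was -0.70. Tlr8, a sensor of RNA, was lowest, with -2.02 on KO AGO2-RIP, 0.50 on KO IgG-RIP and 0.65 on KO input, but its second probe differed by -0.12.

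Stress response genes of the integrated stress response had a median of -0.54. Of 20 such genes, 7 were at least 2-fold lower and 2 higher, beside 26.4% lower and 14.6% higher over all measured genes. Nupr1, a stress-induced nuclear protein, had 0.76 on KO AGO2-RIP, 1.99 on KO IgG-RIP and 3.58 on KO input, while Ddit4 of the same list was among the highest genes of all. The housekeeping genes Actb and Gapdh differed by -1.09 and -1.53, and Apoe by -0.78.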
